A study of Homo sapiens with 60 samples.

Results

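The 9 genes described here belong to the glutathione and thioredoxin systems and their NADPH supply, and are textbook targets of the transcription factor NRF2 or encode it. They were measured by RNA sequencing in A549 cells treated with herbal extracts. The genes are NFE2L2, SLC7A11, GCLC, GCLM, GPX2, TXNRD1, SRXN1, NQO1 and ME1, taken by name from a table of 60675 gene identifiers. All 9 of them were among the 17765 genes with enough counts to be tested. A549 is an established human lung adenocarcinoma line, and RNA was taken 24 h after treatment. The 60 libraries comprise a DMSO vehicle group (n = 3) and 8 extracts. Each extract was given at 20 (low dose), 100 (medium dose) and 500 µg/mL (high dose). Replicated were the water extracts of 2 formulas made of several herbs, Sibjeondaebo-tang (n = 3) and Palmul-tang (n = 2), and the ethanol extracts of Poria Cocos, Atractylodis Rhizoma, Glycyrrhizae Radix (licorice root) and Panax Ginseng (n = 3 each). The ethanol extracts of Angelicae Gigantis Radix and Paeoniae Radix have 1 library per dose. The labels give 0.1% DMSO for the vehicle while the design text gives 2%, and that text describes lower doses for extracts whose IC20 lay under 500 µg/mL, whereas the labels give the same 3 doses for every extract.

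NRF2 is held at low levels by KEAP1, which hands it to a CUL3 ubiquitin ligase until oxidants or electrophiles modify KEAP1. Freed NRF2 pairs with a small MAF protein and binds antioxidant response elements upstream of genes for glutathione synthesis, thioredoxin recycling, NADPH supply and quinone reduction. A549 cells carry an inactivating KEAP1 mutation, so NRF2 and its targets are known to be high in this line before any treatment. SLC7A11, the cystine transporter, is also a known target of ATF4, the transcription factor of the amino acid response.

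The antioxidant response element is the letter pattern through which NRF2 recognises these genes, so the stretches that hold it are shown first. RefSeq upstream sequences (GRCh38.p14) were found for 8 of the 9 genes, in 10 windows of 250 bases before an annotated start. None was found for SLC7A11, so its upstream bases were not searched. The core TGACNNNGC, searched on both strands, was present in windows of 4 of these genes, and it occurs in 10.9% of all 35116 such windows. Each line gives 29 bases in the direction of the gene, with the match in capitals, which reads GCNNNGTCA where the core lies on the other strand.
GCLM, chr1:93909446-93909474 (minus strand): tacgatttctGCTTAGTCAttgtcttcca
ME1, chr6:83431170-83431198 (minus strand): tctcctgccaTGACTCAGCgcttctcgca
TXNRD1, chr12:104215670-104215698 (plus strand): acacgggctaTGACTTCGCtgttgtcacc
TXNRD1, second start inside the gene, chr12:104286920-104286948 (plus strand): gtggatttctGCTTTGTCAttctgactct
GPX2, chr14:64942849-64942877 (minus strand): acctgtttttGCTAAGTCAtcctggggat
The matches start 34 bases before the GCLM start, 137 before the ME1 start, 99 and 102 before the TXNRD1 starts and 122 before the GPX2 start. The windows of GCLC, NQO1, SRXN1 and NFE2L2 held no match, which says only that these letters are not in those 250 bases. A second pattern, TGATGNAA, of the kind bound by ATF4 with a C/EBP partner, occurs in 3.14% of all windows and in none of the 10. Those 10 hold no window of SLC7A11, so neither pattern was looked for in that gene.

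Library totals ran from 18602541 to 29764378 counts. The epithelial genes EPCAM, KRT8, KRT18, KRT19 and CDH1 and the A549 marker ALDH1A1 were present in all 60 libraries, CDKN2A, which A549 has lost, had no count in any library, and PTPRC, CD3E (leukocytes) and VWF (endothelium) had at most 2 counts in a library. The endothelial gene PECAM1 had up to 13 counts and was above 0 in every library, and CD68 ran from 14.9 to 75.8 CPM. Of the surfactant genes of alveolar cells, SFTPC and SFTPA1 had at most 5 and 1 counts and SFTPB at most 23, while SFTPD (median 8.54 CPM) and the lipid transporter ABCA3 (26.9 CPM) were present in every library. Low-dose Poria replicate 3 stood apart, with counts for 27991 genes where every other library had 21679 to 23442. Nothing in the labels ties the libraries of 1 group to separate cultures, so p-values here measure only the spread from library to library, and in bulk RNA fewer cells of a type and less RNA per cell cannot be told apart.

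The NRF2 targets were among the more abundant transcripts of these cells. On a per-length scale, averaged over all 60 libraries, NQO1, the quinone reductase, had a mean of 372 CPM (counts scaled to a library of 1000000) per kilobase and stood above 99.7% of tested genes. TXNRD1, the cytosolic thioredoxin reductase, followed with 231 CPM per kilobase, GPX2, a selenium-dependent glutathione peroxidase, with 153, and SRXN1, which repairs over-oxidised peroxiredoxins, with 120. The malic enzyme ME1, an NADPH source, had 49.5. GCLM and GCLC, the modifier and catalytic subunits of the enzyme that starts glutathione synthesis, had 25.7 and 23.8, SLC7A11 had 14.8 and NFE2L2, which encodes NRF2, had 10.5. The lowest of the 9 stood above 80.4% of tested genes.

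**Figure D1:**
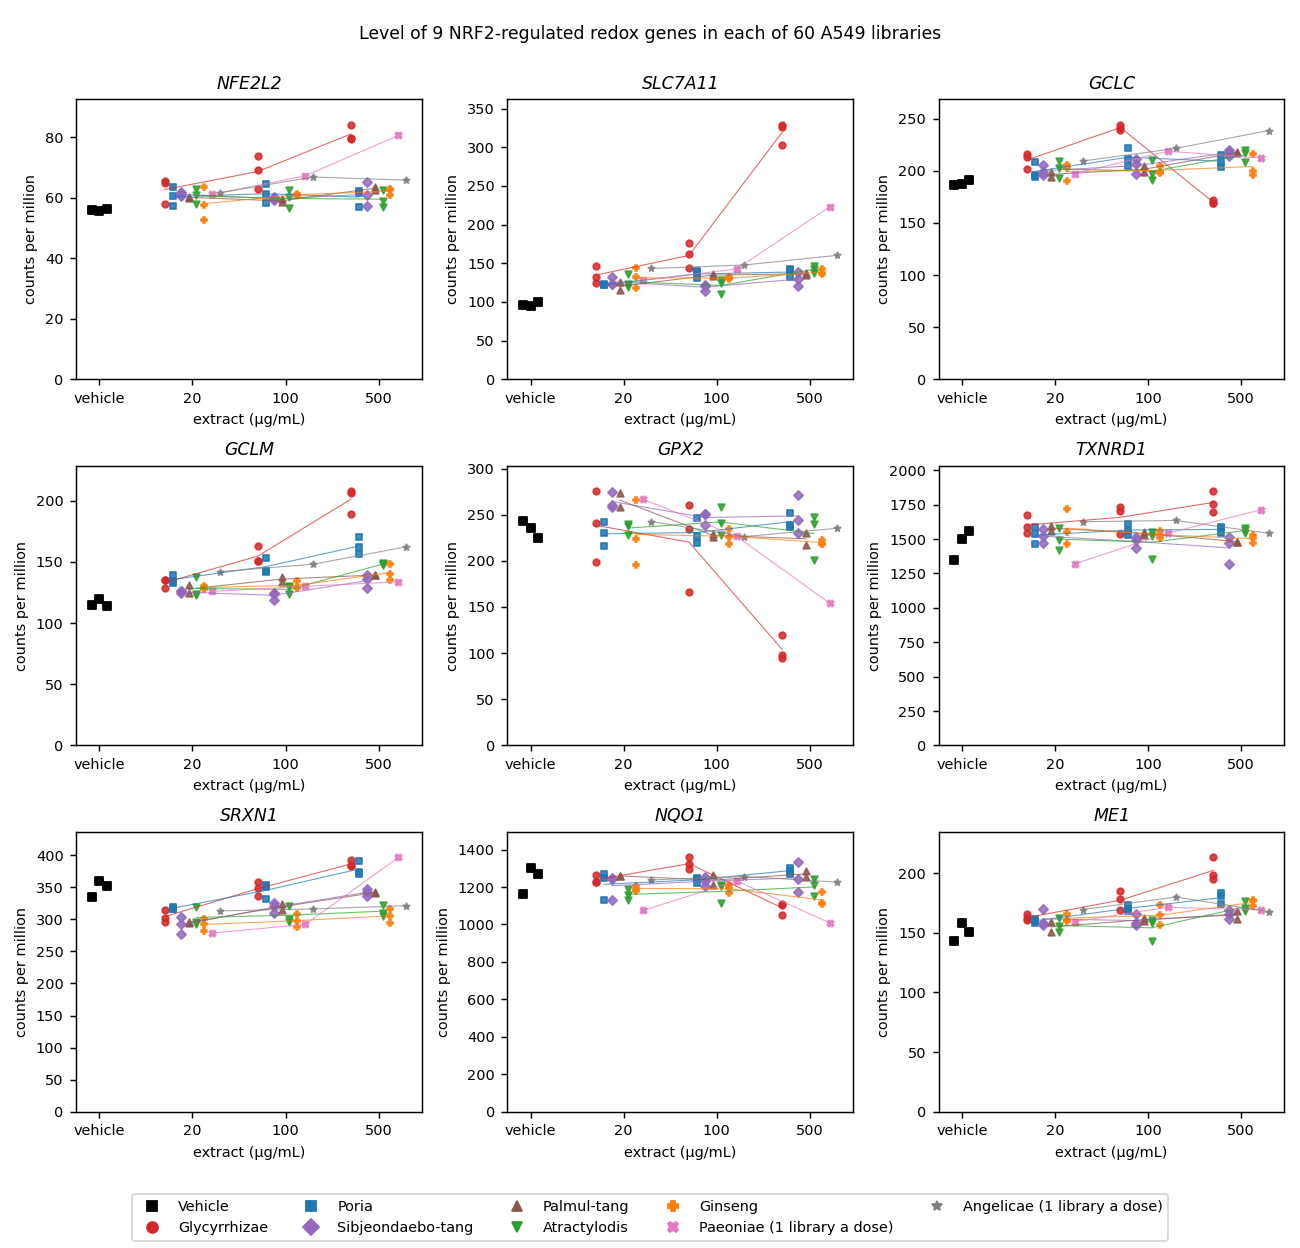
Each point is 1 library, the vertical axis is the level in CPM from 0, and the horizontal axis is the vehicle or the dose of extract in µg/mL, with lines joining group means. SLC7A11 and GCLM sit highest and GPX2 and GCLC lowest at 500 µg/mL Glycyrrhizae, and SLC7A11 sits lowest in the vehicle.

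The main question was how each gene differed between the low and the high dose within 1 extract. That comparison of means holds no vehicle library, but the vehicle libraries entered the scaling, the filter and the pooled spread of the fit. High-dose Glycyrrhizae moved the 9 genes apart: 6 rose, beside 18.5% of all genes, and 3 fell, beside 18.4%. All 9 passed edgeR's quasi-likelihood test (Benjamini-Hochberg adjusted p under 0.05 over all genes), where 37% of all genes tested passed. The median of the 9 was 0.31 on the log2 scale, beside 0.00159 over all genes. Changes below are log2 changes ± SE from that fit, and levels are CPM scaled by TMM.

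**Figure D2:**
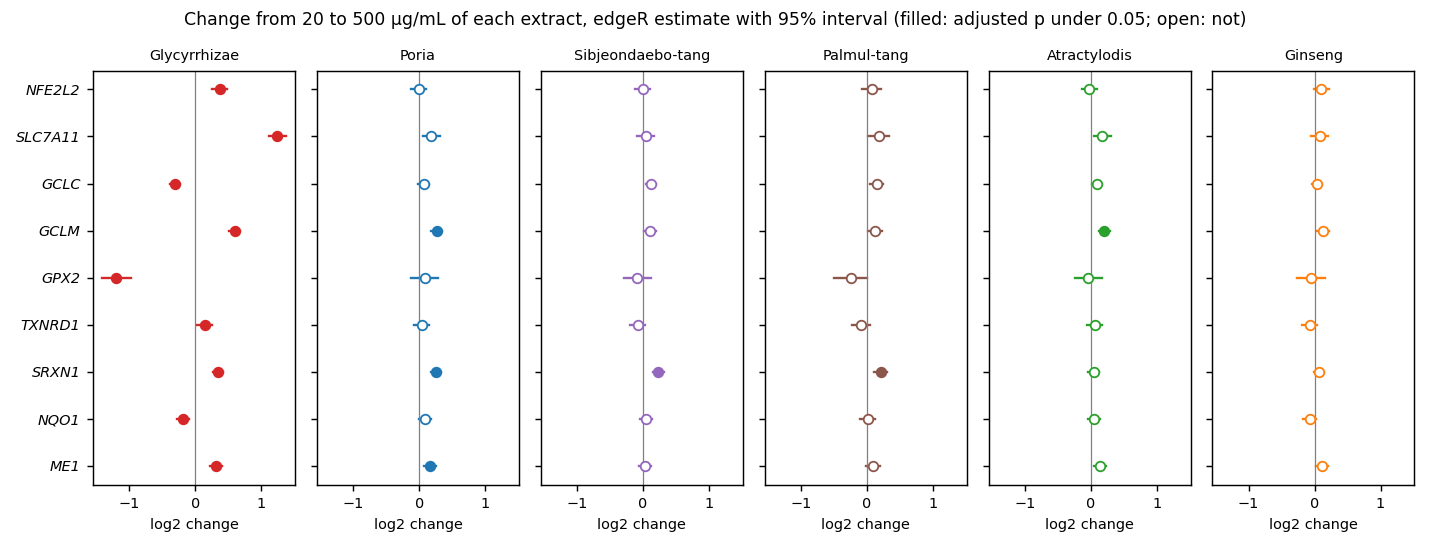
Points are log2 changes from 20 to 500 µg/mL with 95% intervals for the 9 genes (rows) in 6 extracts (panels), filled where the adjusted p is under 0.05. In the Glycyrrhizae panel all 9 points are filled, from -1.20 for GPX2 to 1.25 for SLC7A11, and in the Ginseng panel none is.

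NFE2L2 (ENSG00000116044, chromosome 2, 177227595 to 177392697, GRCh38) encodes NRF2 itself, the regulator of the others. Its low-dose Glycyrrhizae libraries held 65.6, 57.9 and 64.9 CPM and its high-dose libraries 79.4, 84.2 and 80.0. The high-dose libraries were all above the low-dose libraries, with a change of 0.37 ± 0.05 (edgeR adjusted p = 4.1e-07). Mean high-dose Glycyrrhizae (81.2 ± 2.62 CPM, SD, n = 3) was the highest of the 19 replicated groups and the vehicle (55.9 ± 0.359) the lowest, with the other 17 between 58.1 and 68.7. NFE2L2 shares its annotated span with AGPS on the opposite strand, whose counts were 120% of its own. The kit is directional, but the strand setting of the counting is not given in the sources used here. AGPS itself had a change of -0.0049 ± 0.06 (adjusted p = 0.967).

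SLC7A11 (ENSG00000151012, chromosome 4, 138164097 to 138242349) brings in cystine, the limiting building block of glutathione, in exchange for glutamate. The low-dose libraries held 133, 147 and 124 CPM, the medium-dose libraries 143, 176 and 161, and the high-dose libraries 303, 329 and 327. High and low dose did not overlap, and the gene rose by 1.25 ± 0.06 (2.37-fold, edgeR adjusted p = 8.5e-21), the largest rise of the 9. Its partner chain in the transporter, SLC3A2, rose by 0.81 ± 0.07 (490 ± 21.4 against 280 ± 19.3 CPM, edgeR adjusted p = 1.74e-13).

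The subunits of glutamate-cysteine ligase, the enzyme of the first step, moved in opposite directions. GCLM (ENSG00000023909, chromosome 1, 93885205 to 93909456), the modifier subunit that makes the enzyme more efficient, held 135, 135 and 129 CPM at low dose, 151, 163 and 151 at medium dose and 208, 207 and 189 at high dose. No 2 doses overlapped, and from low to high dose it rose by 0.60 ± 0.04 (edgeR adjusted p = 8.29e-16). GCLC (ENSG00000001084, chromosome 6, 53497341 to 53616970), the catalytic subunit, held 216, 213 and 202 CPM at low dose, 240, 244 and 241 at medium dose and 172, 169 and 169 at high dose. Its high-dose libraries lay below every other of the 60 libraries, and its change from low to high dose was -0.31 ± 0.04 (edgeR adjusted p = 2.32e-08).

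GCLC was thus highest at the medium Glycyrrhizae dose and lowest at the high dose of the same extract. Between low and medium dose 4 of the 9 genes passed the test, beside 0.788% of all genes: GCLC (0.20 ± 0.04, edgeR adjusted p = 0.00361), GCLM (0.22 ± 0.04, 0.00264), SRXN1 (0.19 ± 0.04, 0.0056) and SLC7A11 (0.25 ± 0.06, 0.044). All 4 calls were lost when only the 2 compared groups were fitted (edgeR adjusted p 0.611 to 0.983), and that of SRXN1 with no filter on low counts (0.0619). Leaving out low-dose replicate 3 also ended the calls of GCLC (0.0802), SRXN1 (0.0756) and SLC7A11 (0.479), and leaving out medium-dose replicate 2 those of GCLM (0.0587) and SLC7A11 (0.494). SLC7A11 was further lost without low-dose replicate 1 (0.17) or medium-dose replicate 3 (0.151). Of 11 alternative fits, 9 kept GCLC and GCLM, 8 kept SRXN1 and 6 kept SLC7A11. A fit with a block for the replicate numbers, which pair these libraries, kept all 4. From medium to high dose, a comparison added after these values had been seen, 8 of 9 passed, beside 36% of all genes. GCLC fell by 0.51 ± 0.04 (edgeR adjusted p = 3.01e-14) while GCLM rose by 0.38 ± 0.04 (6.79e-10) and SLC7A11 by 1.00 ± 0.06 (2.34e-17), and TXNRD1 did not pass (0.09 ± 0.05, 0.214).

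The count of GCLC per count of GCLM within a library needs no scaling between libraries. It was 1.62 ± 0.0498 (SD, n = 3) in the vehicle, 1.58 ± 0.0204 at low, 1.56 ± 0.0548 at medium and 0.846 ± 0.0411 at high Glycyrrhizae dose. The 3 high-dose libraries, at 0.817 to 0.893, were below all others. High-dose Poria was next (1.29 ± 0.0747) and its libraries (1.20 to 1.33) lay just below those of medium-dose Poria (1.34 to 1.56). The other 17 replicated groups had means from 1.45 to 1.67.

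**Figure D3:**
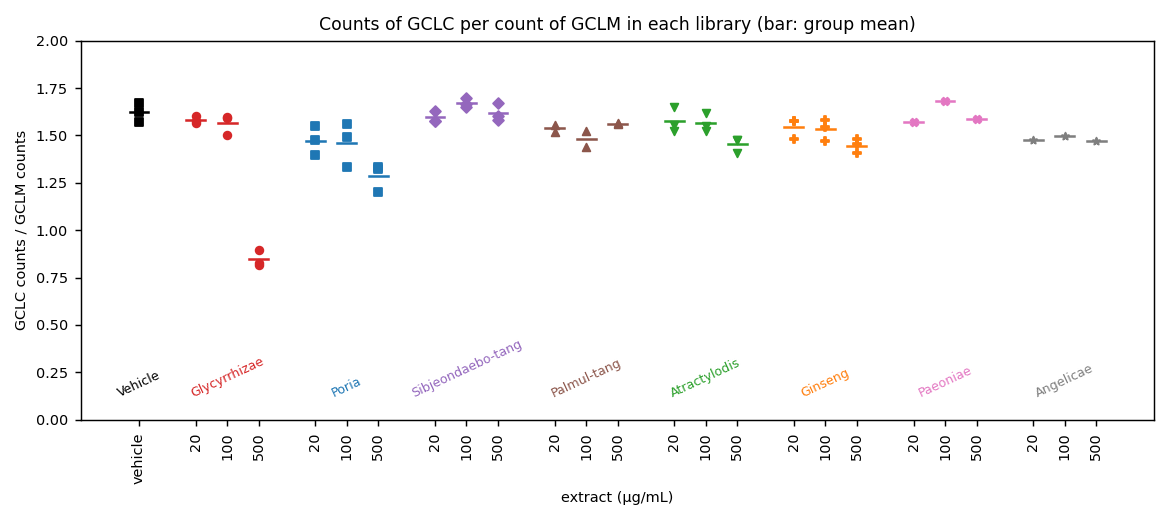
The vertical axis is the number of GCLC counts per GCLM count, each point is 1 library, bars are group means, and the horizontal axis gives the dose of each extract in µg/mL. Only the 500 µg/mL Glycyrrhizae libraries lie under 1, with a mean of 0.846, and 500 µg/mL Poria lies next at 1.29.

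GPX2 (ENSG00000176153, chromosome 14, 64939152 to 64942905) uses glutathione to reduce hydroperoxides. Its low-dose Glycyrrhizae libraries held 242, 199 and 276 CPM, the medium-dose libraries 260, 166 and 234, and the high-dose libraries 120, 97.5 and 95.1. High and low dose did not overlap although replicate 2 was the lowest at low and medium dose, and the gene fell by 1.20 ± 0.11 on the log2 scale (edgeR adjusted p = 6.15e-13), to 0.436 times the low-dose level. High-dose Glycyrrhizae (104 ± 13.6 CPM) was the lowest of the 19 replicated groups, the others running from 220 to 266. CHURC1, which shares its span on the opposite strand with 20.3% as many counts, had a change of -0.27 ± 0.07 (adjusted p = 0.000816), and its part in the GPX2 value was not tested.

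In the thioredoxin arm, SRXN1 (ENSG00000271303, chromosome 20, 646615 to 653370), which restores peroxiredoxins, held 315, 302 and 296 CPM at low dose, 358, 349 and 337 at medium dose and 392, 383 and 385 at high dose of Glycyrrhizae. The 3 doses did not overlap, and the rise from low to high was 0.34 ± 0.04 (edgeR adjusted p = 1.47e-09). TXNRD1 (ENSG00000198431, chromosome 12, 104215779 to 104350305), which recharges thioredoxin with NADPH, held 1585, 1676 and 1544 CPM at low and 1695, 1756 and 1848 at high dose. The groups did not overlap, with a change of 0.14 ± 0.05 (edgeR adjusted p = 0.0423). That call did not hold when only these 2 groups were fitted (0.0996), with no filter on low counts (0.0628), or when 1 library was left out, at high dose replicate 2 (0.0683) or 3 (0.201) and at low dose replicate 1 (0.106) or 3 (0.166).

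ME1 rose and NQO1 fell. ME1 (ENSG00000065833, chromosome 6, 83210389 to 83431071), which makes NADPH from malate, held 160, 162 and 166 CPM at low and 196, 198 and 213 at high dose and rose by 0.31 ± 0.04 (edgeR adjusted p = 7.2e-08). NQO1 (ENSG00000181019, chromosome 16, 69706996 to 69726951), which spends NAD(P)H to reduce quinones, held 1225, 1262 and 1229 CPM at low dose, 1322, 1294 and 1358 at medium dose and 1051, 1104 and 1111 at high dose. High-dose NQO1 lay under both other doses, with a change of -0.19 ± 0.05 against low (edgeR adjusted p = 0.00112) and -0.28 ± 0.05 against medium dose (2.72e-06).

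Other genes of these pathways were read from lists written by hand, with earlier results of these data known. Each stands beside the same 37% of all genes called. Of 22 other glutathione genes, 5 rose and 5 fell at high against low Glycyrrhizae dose, with a median of -0.078. GSS, the second enzyme of glutathione synthesis, rose by 0.30 ± 0.04 (edgeR adjusted p = 2.53e-07) and CHAC1, which degrades glutathione, by 3.42 ± 0.12 (26.6 ± 0.466 against 2.47 ± 0.143 CPM, 1.55e-27), while GSTA4, a glutathione transferase, fell by 0.35 ± 0.08 (0.000665). Of 15 other thioredoxin genes 3 rose and 5 fell, with a median of -0.10. PRDX6 (-0.63 ± 0.05, edgeR adjusted p = 2.2e-13) and PRDX3 (-0.40 ± 0.07, 8.77e-06), both peroxiredoxins, fell, and the stress protein SESN2 (1.14 ± 0.06, 8.88e-20) and the thioredoxin inhibitor TXNIP (0.64 ± 0.11, 2.85e-06) rose.

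Of 11 other enzymes of NADPH supply 3 rose and 3 fell, with a median of -0.014. The isocitrate dehydrogenases IDH2 (0.52 ± 0.06, edgeR adjusted p = 1.78e-10) and IDH1 (0.27 ± 0.04, 1.63e-06) rose, and the folate enzyme MTHFD1 (-0.30 ± 0.04, 2.66e-07) and the transhydrogenase NNT (-0.32 ± 0.05, 9.4e-07) fell. Among 12 genes that control NRF2 or share its partners, 4 rose and 5 fell. SQSTM1, which can sequester KEAP1, rose by 0.97 ± 0.06 (1075 ± 80.9 against 547 ± 34.3 CPM, 4.77e-17), and so did the small MAF genes MAFF (1.73 ± 0.16, 3.44e-12) and MAFG (0.32 ± 0.04, 1.35e-09), while DPP3, which binds KEAP1, fell by 0.23 ± 0.04 (5.66e-06). KEAP1, named after its value was seen, changed by -0.17 ± 0.06 (edgeR adjusted p = 0.0329).

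Of 22 further NRF2 targets 12 rose and 5 fell, with a median of 0.25. HMOX1, heme oxygenase, rose by 1.36 ± 0.08 (edgeR adjusted p = 1.49e-19), NR0B1 by 0.76 ± 0.07 (7.02e-13), the fatty acid hydroxylase CYP4F11 by 0.70 ± 0.05 (6.51e-16) and TRIM16L by 0.47 ± 0.05 (2.9e-10). On the list of 12 ATF4 targets all 12 rose, with a median of 2.06, where CHAC1 stands also on the glutathione list and SESN2 on the thioredoxin list. This list too was chosen with earlier results of these data known, so its count is a description only. ASNS (asparagine synthetase) rose by 2.82 ± 0.05 (2.4e-38), PHGDH (the first enzyme of serine synthesis) by 2.28 ± 0.04 (6.3e-37), STC2 by 2.57 ± 0.05 (3.42e-36) and TRIB3 by 1.98 ± 0.06 (3.05e-30), all edgeR adjusted p. The keratin genes KRT8 (-0.78 ± 0.05, 1.55e-16) and KRT18 (-0.58 ± 0.05, 2.93e-14) fell in the same libraries, and CD68, a lysosomal gene used as a macrophage marker, rose by 1.76 ± 0.15 (1.13e-13) while PTPRC had at most 2 counts in any library. All 6 epithelial markers fell, their summed level being 10960 to 11040 CPM at low and 7314 to 7343 at high dose. Of 10 markers of other cell types 5 had enough counts to be tested, 1 rose (CD68) and 1 fell (DCN, a fibroblast gene), and their sum was 36.2 to 44.8 CPM at low and 81.7 to 98.2 at high dose. Of 8 alveolar genes 6 were tested, 3 of them rose (SFTPB, ABCA3 and LAMP3) and 2 fell (SFTPD and NKX2-1), and the sum was 38 to 40.9 CPM at low and 43.4 to 46.9 at high dose. The part of these changes in the values of the 9 genes was not tested.

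**Figure D4:**
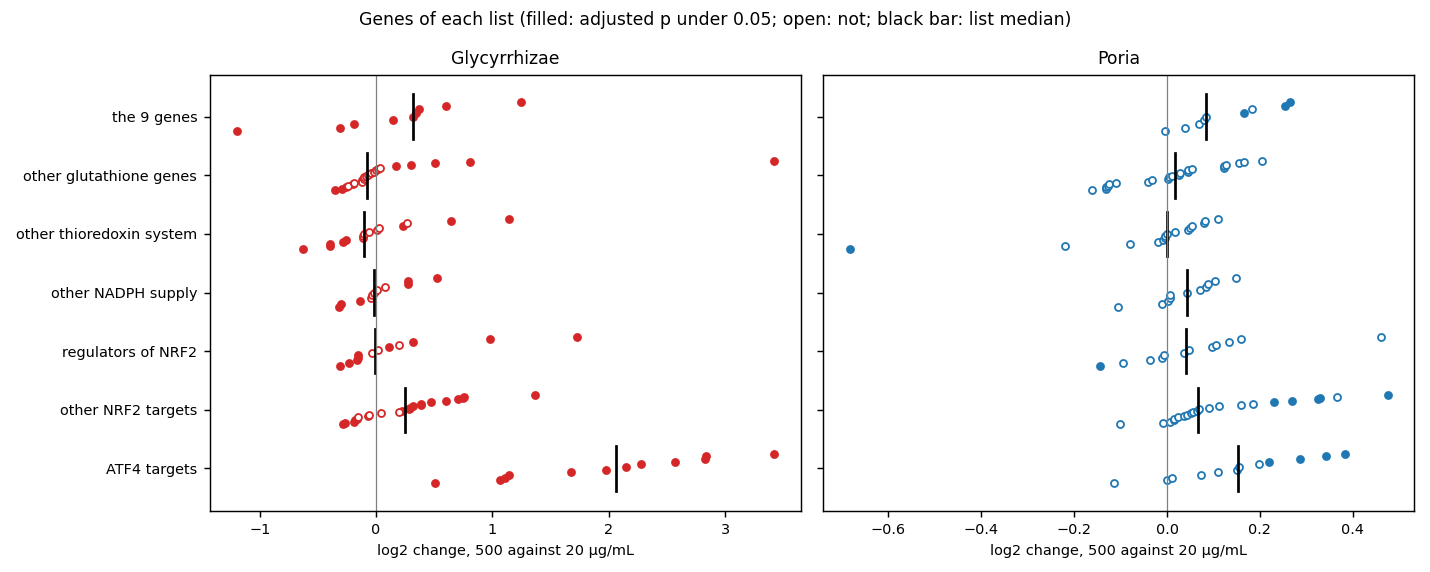
Each point is a gene, placed by its log2 change from 20 to 500 µg/mL of Glycyrrhizae (left) or Poria (right, on a narrower axis), in rows by list, filled where the adjusted p is under 0.05, with a black bar at the list median. In the left panel the ATF4 targets lie furthest to the right, with a median of 2.06, and the other glutathione, thioredoxin and NADPH genes lie on both sides of 0.

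High-dose Poria raised GCLM, SRXN1 and ME1, and none of the 9 fell. These 3 calls stand beside 1.55% of all genes, 275 in number, which were 459 with the replicate block, and the block kept all 3. GCLM held 135, 133 and 139 CPM at low and 162, 157 and 170 at high dose, without overlap, and rose by 0.27 ± 0.04 (edgeR adjusted p = 0.000149). SRXN1 held 316, 317 and 320 CPM at low, 354, 350 and 332 at medium and 391, 374 and 371 at high dose and rose by 0.25 ± 0.04 (0.000124). The doses of SRXN1 did not overlap. ME1 rose from 160 ± 1.81 to 180 ± 4.59 CPM (0.17 ± 0.04, edgeR adjusted p = 0.0338), a call lost in 7 of 11 alternative fits. These included leaving out replicate 1 (0.155) or 3 (0.177) of the high dose, and replicate 1 (0.0791), 2 (0.111) or 3 (0.133) of the low dose. Without low-dose replicate 3, the library that stood apart, GCLM rose by 0.28 (edgeR adjusted p = 0.000556) and SRXN1 by 0.25 (0.000962). Of the 22 further NRF2 targets 5 rose with Poria, among them HMOX1 (0.47 ± 0.08, edgeR adjusted p = 0.000149), TRIM16L (0.32 ± 0.05, 0.000141), OSGIN1 (0.33 ± 0.07, 0.0037) and CYP4F11 (0.23 ± 0.05, 0.00758), and 4 of 12 ATF4 targets rose. None of the 22 other glutathione genes passed, and of the 15 thioredoxin genes only TXNIP did (-0.68 ± 0.13, 0.00105).

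In both formulas SRXN1 passed edgeR's test between low and high dose, alone among the 9. Its high-dose mean was 342 CPM in both, beside 349 ± 12.7 CPM in the vehicle, and it did not pass against the vehicle. With Sibjeondaebo-tang its low-dose libraries held 304, 277 and 294 CPM and its high-dose libraries 343, 347 and 336, without overlap, a rise of 0.23 ± 0.04 (edgeR adjusted p = 0.000183) where 3.78% of all genes passed. With Palmul-tang (n = 2 per dose) it held 296 and 294 CPM at low and 342 and 341 at high dose, a rise of 0.21 ± 0.05 (edgeR adjusted p = 0.0103) where 2.08% passed. The Palmul-tang call did not hold when low counts were left unfiltered (0.085), nor without low-dose replicate 2 (0.0879) or 3 (0.11) or high-dose replicate 2 (0.0783) or 3 (0.0809), fits in which the remaining library of that dose is taken to have the spread of the other groups. GCLC had 0.12 ± 0.04 with Sibjeondaebo-tang (0.0909) and 0.15 ± 0.05 with Palmul-tang (0.132) and passed edgeR's test in neither, but with DESeq2 it passed in both (adjusted p = 0.0439 and 0.0451). GPX2 with Palmul-tang passed when low counts were left unfiltered (-0.24, edgeR adjusted p = 0.0301) and with only the compared groups (-0.25, 0.0119). The glutathione list had 2 rises with Sibjeondaebo-tang, GGCT (0.23 ± 0.05, 0.00531), which releases oxoproline from glutamyl peptides, and GSR (0.16 ± 0.04, 0.0268), which reduces oxidised glutathione, and 1 with Palmul-tang, again GGCT (0.26 ± 0.07, 0.0217).

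With Atractylodis 1 of the 9 genes passed and with Ginseng none. In the Atractylodis libraries GCLM rose by 0.21 ± 0.04 (148 ± 0.847 against 128 ± 8.37 CPM, edgeR adjusted p = 0.0134), where 0.208% of all genes passed. Its call was lost in 6 of 11 alternative fits, with adjusted p from 0.0542 to 0.185 when any high-dose library or low-dose replicate 2 or 3 was left out. With Ginseng 1.2% of all genes passed. The widest 95% interval among the 9 there, that of GPX2, ran from -0.26 to 0.15, and that of SLC7A11 from -0.06 to 0.21. Between low and medium dose none of the 9 passed with the 5 extracts other than Glycyrrhizae, beside 0.0788% of all genes with Sibjeondaebo-tang and 0 genes with the others. Between medium and high dose GCLM passed with Atractylodis (0.22 ± 0.04, edgeR adjusted p = 0.0177), beside 0.0957% of all genes, a call lost in 6 of 11 alternative fits, among them leaving out any high-dose library or medium-dose replicate 1 or 2. None of the 9 passed between those doses with Poria (0.129% of all genes), Sibjeondaebo-tang (0.0957%), Palmul-tang (0.0619%) or Ginseng (0.276%).

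Whether the dose response itself differed between extracts was tested as an interaction in the same fit. The high against low change of Glycyrrhizae minus that of Ginseng, which share a set of sample codes, passed for 8 of 9 genes, beside 21% of all genes. The difference was 1.17 ± 0.09 for SLC7A11 (edgeR adjusted p = 3.57e-14), 0.47 ± 0.06 for GCLM (5.56e-08), -0.34 ± 0.06 for GCLC (7.78e-06) and -1.14 ± 0.15 for GPX2 (4.55e-08). TXNRD1 (0.21 ± 0.08, 0.0468), ME1 (0.20 ± 0.06, 0.0137), NFE2L2 (0.27 ± 0.08, 0.0103) and SRXN1 (0.28 ± 0.06, 0.000193) also passed. The TXNRD1 call was lost in 10 of 17 alternative fits, 8 of them leaving out 1 library (high-dose Glycyrrhizae 2 or 3, low-dose Glycyrrhizae 1 or 3, high-dose Ginseng 1, 2 or 3, or low-dose Ginseng 2, adjusted p from 0.0518 to 0.19), that of ME1 without high-dose Glycyrrhizae replicate 3 (0.0639) or with no filter on low counts (0.0856) and that of NFE2L2 without low-dose Ginseng replicate 3 (0.0738). NQO1 did not pass (-0.11, 95% interval -0.24 to 0.02, 0.255). Between Poria and Atractylodis none of the 9 passed, beside 0.0732% of all genes, and the widest gap was that of SRXN1 (0.21, 0.09 to 0.32, adjusted p = 0.217). Between Sibjeondaebo-tang and Palmul-tang none of the 9 and none of all genes passed. A test of any difference among the 6 extracts passed for 8 of 9 genes, all but TXNRD1 (edgeR adjusted p = 0.108), beside 22.5% of all genes. Without low-dose Ginseng replicate 3 TXNRD1 passed too (0.0443), and without high-dose Glycyrrhizae replicate 3 (0.0695) or with no filter on low counts (0.0668) ME1 did not.

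Against the vehicle, SLC7A11 was higher and SRXN1 lower at every low dose. The 3 vehicle libraries serve every such comparison and have a sample code set of their own, so set and treatment cannot be told apart there. SLC7A11 held 95.6, 94.4 and 100.4 CPM in the vehicle, below each of the other 57 libraries. Low-dose changes of SLC7A11 were 0.31 to 0.48 (edgeR adjusted p from 5.54e-07 to 0.00241), that of Palmul-tang being lost without its low-dose replicate 3 (0.106). SRXN1 held 335, 360 and 353 CPM in the vehicle and was lower at the low dose of all 6 replicated extracts, from -0.26 with Sibjeondaebo-tang to -0.14 with Poria (edgeR adjusted p from 4.68e-06 to 0.0121). The Poria value was lost without vehicle replicate 2 (0.0795), with no filter on low counts (0.105) and with only the compared groups (0.0954). At high dose SRXN1 passed as higher than the vehicle with Glycyrrhizae (386 CPM) and Poria (378 CPM). The high-dose Poria call was kept in 3 of 10 alternative fits. SRXN1 was lower than the vehicle at high dose of Atractylodis (313 CPM) and Ginseng (305.5 CPM), and passed with neither formula.

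The counts of the 9 genes called at low dose against the vehicle were 2 with Sibjeondaebo-tang, 3 with Palmul-tang, 3 with Poria, 3 with Atractylodis, 6 with Glycyrrhizae and 3 with Ginseng. The shares of all genes called were 24.1%, 15.4%, 19.5%, 23.7%, 28.8% and 28.8% in that order. At high dose the counts were 4, 5, 5, 5, 9 and 7, beside 15.2%, 22.2%, 16.3%, 26.1%, 46.8% and 28.9%. Leaving out 1 library at a time gave 4 to 6 for low-dose Glycyrrhizae and 2 to 4 for low-dose Atractylodis. Of the low-dose Glycyrrhizae calls, ME1 was kept in 4 and NFE2L2 in 5 of 10 alternative fits. The 7 of high-dose Ginseng were 4 without vehicle replicate 2 or high-dose replicate 1. The 5 of high-dose Palmul-tang were 3 without vehicle replicate 1 or 3 or either of its own libraries, and the 3 of low-dose Palmul-tang were 1 without its low-dose replicate 3. GCLM was higher than the vehicle at high dose of all 6 extracts, by 0.21 (Sibjeondaebo-tang, edgeR adjusted p = 0.000623) to 0.79 (Glycyrrhizae, 8.52e-20). GCLC was lower than the vehicle with high-dose Glycyrrhizae (-0.15 ± 0.04, 0.00231), and its values in the other 5 were 0.12 to 0.21.

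The single-library series of Paeoniae and Angelicae allow no test of a dose. With Paeoniae SLC7A11 had 128, 142 and 223 CPM at low, medium and high dose (exact 95% binomial interval of the last 216 to 230, counting error only). SRXN1 had 279, 292 and 397 CPM, TXNRD1 1320, 1542 and 1712, and NFE2L2 61.1, 67.3 and 80.7. These 4 genes and GCLM (126, 130 and 134 CPM) were in the order of the doses, and GPX2 was in the reverse order with 267, 227 and 154 CPM. The low-dose TXNRD1 value was the lowest of that gene in the 60 libraries. GCLC had 198, 219 and 213 CPM, with count ratios of GCLC to GCLM of 1.57, 1.68 and 1.59. NQO1 had 1075, 1233 and 1009 CPM and ME1 159.5, 171.5 and 169.2, both highest at medium dose. In the high-dose Paeoniae library the summed epithelial markers were at 8204 CPM against 10510 at low dose, the alveolar genes at 71.8 against 39.1 and the markers of other cells at 89.7 against 46.1, and their part in these values was not tested. At high dose the log2 ratio to low dose (CPM plus 1) was 0.80 for SLC7A11, 0.51 for SRXN1 and -0.79 for GPX2. With Angelicae the ratios of the 9 genes lay between -0.08 (TXNRD1) and 0.19 (GCLM).

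Across the 25 group means of log2 CPM, which share libraries, depth and an extreme Glycyrrhizae group, the 9 genes did not move as a block. SLC7A11 ran with NFE2L2 (Pearson r = 0.92, and 0.90 without high-dose Glycyrrhizae) and against GPX2 (-0.90, and -0.75 without). The 24 groups without it still hold the single high-dose Paeoniae library, at 223 CPM for SLC7A11, 80.7 for NFE2L2 and 154 for GPX2. In the 17 replicated groups other than vehicle and high-dose Glycyrrhizae, means were at most 160 and 68.7 CPM for SLC7A11 and NFE2L2. For GPX2 they were at least 220 CPM. The weight of that library in these r values was not tested. GCLM ran with ME1 (0.89, and 0.80 without). GCLC and GCLM had r = 0.06 over all 25 groups and 0.75 over the 24 without high-dose Glycyrrhizae. Over 10670 genes at 5 CPM or more, the gene most like SLC7A11 was EREG, an EGF receptor ligand (0.96), that most like GPX2 was ARRB1, an arrestin (0.96), and that most like SRXN1 was RIN1 (0.92). For NFE2L2 it was GAREM1 (0.93), for NQO1 HARS2 (0.89), for GCLM NUP54 (0.89), for ME1 GCLM (0.89), for TXNRD1 COPB1 (0.89) and for GCLC COPS2 (0.81). Without high-dose Glycyrrhizae the r of these same pairs ran from 0.74 (GCLC with COPS2) to 0.93 (SLC7A11 with EREG), and that of GPX2 with ARRB1 was 0.86.

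Ordering the 19 replicated groups by mean level left few clear steps. Of the 18 neighbouring pairs in that order, libraries overlapped in 15 for GCLC and GCLM, in 16 for SLC7A11 and SRXN1, in 17 for NFE2L2, GPX2 and ME1 and in 18 for TXNRD1 and NQO1. For SLC7A11 the 2 steps without overlap lay above the vehicle (96.8 ± 3.17 CPM) and below high-dose Glycyrrhizae (319 ± 14.5), and the 17 groups between them had means from 119 to 160. For GPX2 the 1 step lay above high-dose Glycyrrhizae, and for NFE2L2 it lay below it.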

How the data were processed

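Messenger RNA of A549 cells was sequenced in 60 libraries. Per the submitters' processing notes, reads passed through FastQC 0.11.9, Trim Galore 0.6.5, STAR 2.7.3a and RSEM 1.3.3, and the genome is GRCh38. The authors deposited expected counts per gene in a table of 270 columns, of which 60 belong to the libraries described and 210 were not used. Of the values above 0, 76% were whole within 1e-09, and all were rounded. Neither the annotation release nor how strand was treated in counting is given in the sources used here. Symbols and positions came from the gene name tables and GENCODE 29.

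The 17765 genes that passed filterByExpr were scaled by TMM and fitted with 1 mean per group over all 60 libraries in edgeR 4.0.16 (R 4.3.3; glmQLFit, glmQLFTest, 35 residual degrees of freedom, common biological coefficient of variation 5.59%). Benjamini-Hochberg adjustment ran over all genes at 0.05, and each SE was taken as the size of the log2 change over the root of its F statistic. Counts of the 51 pairs of replicates differed by more than sampling noise (chi-square over degrees of freedom 2.59 to 36.6). Groups came from the library titles. Replicate numbers come from the labels. Same-numbered libraries deviated together with every correlation over 0.1, and so were taken to pair, in 5 of the 15 comparisons of 2 doses with 3 pairs (Glycyrrhizae medium with low and with high, Ginseng low with medium and with high, Poria low with high). Alternatives were DESeq2 1.42.0, RLE size factors, no low-count filter, only the compared groups, a replicate block and leaving out each library. The fit was tested on simulated counts with known changes. Those counts were drawn independently for each library with the spread of the fit itself, so that test does not cover the pairing of libraries.

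All 9 genes are described. From each other list the called genes with the smallest adjusted p, up to 4 per extract, are those that may be named, and likeness was ranked by Pearson r over group means. The genes and lists were chosen with earlier results of these data known. Intervals of single libraries cover counting error only, since reads carry no molecular identifiers here.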

Additional observations from a re-analysis of the deposited data

Results flagged for a closer look

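The change from low to high dose differed between Glycyrrhizae and Ginseng by an interaction test for 8 of the 9 genes, beside 21% of all genes. In log2 units, Glycyrrhizae minus Ginseng, the differences were -0.34 for GCLC, 0.47 for GCLM, 0.20 for ME1, 0.27 for NFE2L2, 1.17 for SLC7A11, -1.14 for GPX2, 0.21 for TXNRD1 and 0.28 for SRXN1. SLC7A11 and GPX2 differed most and in opposite directions. The TXNRD1 call was kept in 7 of 17 alternative fits.

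The same dose change differed somewhere among the 6 replicated extracts for 8 genes, beside 22.5% of all genes. The adjusted p from edgeR's test over 6 extracts was 9.63e-08 for GCLC, 3.1e-08 for GCLM, 0.0095 for ME1, 0.000628 for NFE2L2, 6.12e-15 for SLC7A11, 8.23e-09 for GPX2, 0.00883 for NQO1 and 0.000193 for SRXN1. The ME1 call did not hold when low counts were left unfiltered (0.0668) or without high-dose Glycyrrhizae replicate 3 (0.0695). Glycyrrhizae is among the extracts in both tests, so they share its 6 libraries.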

How the results depend on the processing

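No gene that passed in the main fit or in an alternative differed in direction between them. Changes of sign in genes that passed in neither were not counted, and the test of any difference among extracts has no direction. Scaling by RLE in place of TMM shifted library factors by at most 0.00675 on the log2 scale. For high against low dose the count of the 9 genes called was 1 with Sibjeondaebo-tang (2 with the replicate block and with DESeq2, adding GCLC), 1 with Palmul-tang (2 with the replicate block and with DESeq2, adding GCLC, and 2 with only the compared groups), 3 with Poria, 1 with Atractylodis (0 with only the compared groups), 9 with Glycyrrhizae and 0 with Ginseng. ME1 with Poria and TXNRD1 with Glycyrrhizae were lost both with no filter and with only the compared groups. In the unfiltered fit the 1 Palmul-tang gene was GPX2 in place of SRXN1. Smaller moves of a count are not all listed here. For medium against low Glycyrrhizae the count was 4 (0 with only the compared groups). For high against medium dose it was 0 with Poria (1 with the replicate block and with DESeq2) and 1 with Atractylodis (2 with no filter or the replicate block, 0 with only the compared groups). Against the vehicle it was 5 with high-dose Poria (3 with no filter), 7 with high-dose Ginseng (4 with no filter) and 2 with low-dose Sibjeondaebo-tang (4 with only the compared groups). Poria minus Atractylodis gave 0 (1 with the replicate block and with DESeq2, SRXN1 in both). Leaving out each library gave, for high against low dose, 0 to 0 with Palmul-tang and 0 to 1 with Atractylodis, for medium against low Glycyrrhizae 1 to 4, for high against medium Atractylodis 0 to 1, for high dose against the vehicle 3 to 4 with Palmul-tang and 4 to 7 with Ginseng, and for low-dose Palmul-tang 1 to 3. The cause was not tested, except that leaving out a library also removes degrees of freedom.

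The share of all genes called moved as well. With high against low dose the number was 672 with Sibjeondaebo-tang (323 to 961 over its alternatives), 370 with Palmul-tang (108 to 577), 275 with Poria (123 to 459), 37 with Atractylodis (16 to 213), 6567 with Glycyrrhizae (5773 to 7023) and 214 with Ginseng (21 to 320). With medium against low Glycyrrhizae it was 140 (8 to 209). With no TMM factor the vehicle mean was 185.6 CPM for GCLC and 55.05 for NFE2L2, and the Paeoniae TXNRD1 ratio 0.35. Deviations of libraries of the same number in the labels had a median correlation of 0.252 in the Glycyrrhizae and Ginseng set (38 of 45 pairs over 0.1). It was 0.0977 in the Poria and Atractylodis set (22 of 45) and -0.00562 in the formula set (7 of 33). Libraries of different number in the Glycyrrhizae and Ginseng set had a median of -0.137. Deviations were taken from each group's own mean and cancel within a group. That negative median therefore follows from the positive one and is no separate sign of pairing. In the comparisons whose numbers pair the libraries the replicate block changed no call of the 9 genes. Elsewhere it added GCLC with both formulas (edgeR adjusted p = 0.0189 with Sibjeondaebo-tang and 0.0308 with Palmul-tang), SRXN1 between medium and high dose of Poria (0.0447), ME1 between those of Atractylodis (0.0417) and SRXN1 in Poria minus Atractylodis (0.0252). Depth was not limiting for these genes, the lowest count of any in a library being 1055 (NFE2L2).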
